A study of Mus musculus with 4 samples.

Results

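Gzmk-positive T cells are blood T cells in which at least 1 transcript of Gzmk was counted. A cell was included if it held at least 2 unique molecular identifiers (UMIs, each standing for 1 captured transcript) of Cd3d, Cd3e and Cd3g together, at least 1 of Gzmk, at most 2 of the B cell gene Cd79a and at most 4 of the monocyte gene Lyz2. There were 152 such cells among 2734 T cells chosen in the same way without the Gzmk limit, and among 14588 blood cells in all. The cells were thus selected on the UMIs of Gzmk, the 3 Cd3 genes, Cd79a and Lyz2, whose values are given as a description.

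Peripheral blood came from female C57BL/6 mice of 4 months (young) and 24 months (old), and the labels name no transgene or drug. Blood of 2 mice was pooled for each sample, which gave 2 young and 2 old pools, so that the pool is the replicate (n = 2 per age) and the mice of a pool cannot be told apart. White cells were enriched over Lymphoprep, remaining red cells were lysed, and transcripts were counted at their 3′ end in droplets (10x Chromium). The pools held between 9521253 and 18658072 UMIs in 2187 to 4642 cells. A barcode sequence was shared between pools for 216 cells, 2 of them Gzmk-positive T cells, and in 0 cases were both cells Gzmk-positive.

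Gzmk encodes granzyme K, a serine protease stored in the granules of T cells and natural killer (NK) cells. Granzymes A and B are related proteases of the same granules, and Nkg7 encodes a granule membrane protein of cytotoxic lymphocytes. Cd8 T cells that leave the naive state lose genes such as Ccr7 and Lef1 and gain chemokines, granule proteins and the T-box factors Eomes and Tbx21. Granzyme K-expressing Cd8 T cells with PD-1 (Pdcd1) and TOX are known to build up in several tissues of aged mice.

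The start sites of 4 of these granule genes are shown because the same cells held their transcripts. The windows are the 250 bases before the RefSeq transcription start on GRCm38.p6 (mm10). Capitals mark exact matches, on either strand, to the T-box core GGTGTG (reverse CACACC) or the RUNX core TGTGGT (reverse ACCACA), which do not overlap here. Each is written 5′ to 3′ along the gene.
Gzmk, chr13:113180966-113181215, minus strand: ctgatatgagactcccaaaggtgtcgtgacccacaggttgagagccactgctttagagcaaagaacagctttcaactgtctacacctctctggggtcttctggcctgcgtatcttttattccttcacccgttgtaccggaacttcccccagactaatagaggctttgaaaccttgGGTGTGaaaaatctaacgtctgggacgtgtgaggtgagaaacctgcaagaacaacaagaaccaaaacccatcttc
Gzma, chr13:113100982-113101231, minus strand: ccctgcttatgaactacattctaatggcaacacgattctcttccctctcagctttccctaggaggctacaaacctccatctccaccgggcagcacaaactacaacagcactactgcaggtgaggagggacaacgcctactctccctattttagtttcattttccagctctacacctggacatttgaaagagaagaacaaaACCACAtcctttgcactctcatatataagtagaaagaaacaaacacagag
Gzmb, chr14:56262335-56262584, minus strand: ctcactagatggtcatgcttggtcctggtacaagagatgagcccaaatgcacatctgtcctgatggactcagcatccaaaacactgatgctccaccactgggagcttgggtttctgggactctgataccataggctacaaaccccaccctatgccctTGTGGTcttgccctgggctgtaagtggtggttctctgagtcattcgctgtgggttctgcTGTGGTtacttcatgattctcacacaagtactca
Nkg7, chr7:43436888-43437137, plus strand: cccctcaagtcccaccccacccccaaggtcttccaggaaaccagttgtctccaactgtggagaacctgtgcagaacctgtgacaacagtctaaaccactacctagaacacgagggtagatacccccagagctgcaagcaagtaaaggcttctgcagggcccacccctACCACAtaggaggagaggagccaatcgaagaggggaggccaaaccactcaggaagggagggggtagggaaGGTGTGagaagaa
The T-box core occurred in the windows of Gzmk and Nkg7, and in 16.3% of all 32851 windows of this length. The RUNX core occurred in those of Gzma, Gzmb (2 matches) and Nkg7, and in 14.0% of all windows. Gzmk and Gzma lie on the same chromosome, at 113171630 to 113180965 and 113093824 to 113100981 of chromosome 13.

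Gzmk-positive cells took a larger share of the T cells in both old pools than in either young pool. They made up 20 of 1204 T cells in young pool 1 (1.66%, 95% exact binomial interval 1.02 to 2.55%) and 36 of 985 in young pool 2 (3.65%, 2.57 to 5.02%). In old pool 1 they were 56 of 328 T cells (17.1%), and in old pool 2 they were 40 of 217 (18.4%). The intervals of the young pools did not overlap each other, and every old pool lay above every young pool. Over all Cd3-positive cells, without the limits on Cd79a and Lyz2, the shares were 1.46% and 3.27% for young pools, against 14.4% and 15.2% for old pools.

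The difference between the mean shares was 15.1 percentage points (2.66% young, 17.8% old), and the two-sided exact permutation test gave p = 0.33, the smallest that 2 against 2 pools allow. On numbers of cells, edgeR gave a log2 fold change of 2.76 (SE 0.42) for old over young within the T cells, with an adjusted p of 0.0158. It stayed between 2.26 and 3.39 when each pool was left out in turn. With the replicate number of the pools as a block, it was 2.80 (edgeR, adjusted p = 0.0552).

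Other T cells were fewer in old blood, with 1184 and 949 in the young pools and 272 and 177 in the old pools. Whether Gzmk-positive cells were more or the other T cells fewer per volume of blood cannot be told apart from shares. Of all cells in a pool, Gzmk-positive T cells made up 0.513% and 0.933% of young and 1.21% and 1.83% of old ones. Both old shares lay above both young shares, with means 0.795 percentage points apart, but the intervals of young pool 2 (0.655 to 1.29%) and old pool 1 (0.913 to 1.56%) overlapped.

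The share was higher in both old pools in each class of T cells set by Cd4 and Cd8 UMIs. Of Cd8 T cells (Cd8a or Cd8b1, no Cd4), 3.24% and 11.2% in young and 24.3% and 29.9% in old pools were Gzmk-positive. Of Cd4 T cells, 1.29% and 1.12% in young and 13.5% and 6.25% in old pools were, resting on 3, 2, 7 and 2 cells. Of T cells with neither, 0.725% and 1.11% in young and 10.6% and 13.9% in old pools were. Set against only the Cd8 T cells with at least 2 UMIs of Ccl5, the shares were 7.69% and 20.0% for young pools, against 25.2% and 34.4% for old pools. There the gap between young pool 2 and old pool 1 was small and their intervals overlapped.

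**Figure D1:**
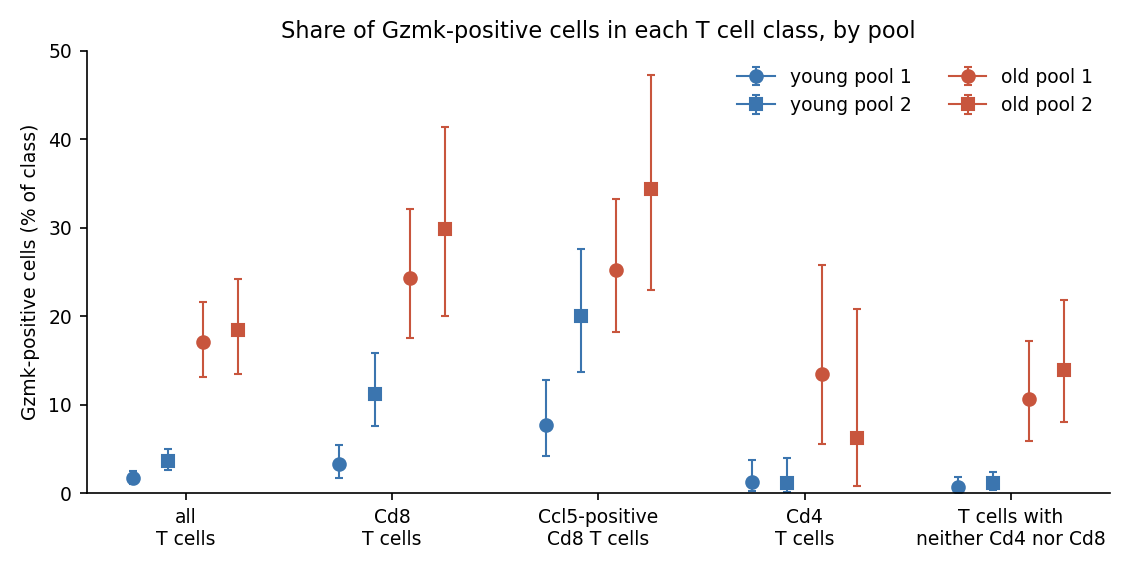
Share of Gzmk-positive cells (% of the class, vertical axis) among all T cells and 4 classes of T cells, for each pool, with bars for 95% exact binomial intervals that cover counting error only. Both old pools lie above both young pools in every class, from 1.66% and 3.65% to 17.1% and 18.4% among all T cells.

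Gzmk RNA was rare in B-like cells and was found in few NK-like cells. Of B-like cells (at least 3 Cd79a UMIs, no Cd3), 0 of 1781 held a Gzmk UMI in young pool 1, which allows up to 0.168%, and 0.169% of 1773 did in young pool 2. In the old pools it was 0.272% of 3312 and 0.21% of 1428. Median depth was 2092, 2079, 3250 and 3153.5 UMIs in these B-like cells and 2740.5, 3399.5, 2517.5 and 2355 UMIs in Gzmk-positive T cells. NK-like cells (Klrb1c and Nkg7 UMIs, no Cd3 or Cd79a) held Gzmk in 4 of 98 cells of young pool 2 and in 0 of 96, 39 and 15 cells of the other pools. With each cell thinned to 1000 UMIs, 0.581% and 1.93% of young and 11.9% and 12.4% of old T cells were Gzmk-positive, against at most 0.0302% of B-like cells in any pool.

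Each cell held few Gzmk UMIs. Of the 152 cells, 70 held 1, 37 held 2 and 45 held 3 or more, up to 12. Just outside the limits lay 6 cells with Gzmk and a single Cd3 UMI, 7 with none, 24 with at least 3 Cd79a UMIs and 1 with at least 5 Lyz2 UMIs, while 5 of the cells inside had exactly 2 Cd3 UMIs. The summed level of Gzmk was 449.8 and 453 CPM (UMIs of the gene scaled to the depth of the summed cells) for young pools and reached 857 and 1074 CPM for old pools. Both old values lay above both young values, but Gzmk itself chose the cells. Each held at least 1 Gzmk UMI, so the level has a floor that rises as depth falls. The part of this floor in the order of the pools was not tested.

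The cells carried the T cell and granule genes that the name implies. Ccl5 was found in 143, Nkg7 in 141 and Itga4 in 100 of the 152 cells. Zbtb16 had 1 UMI in all, and Foxp3 and Tnf had 0. NK markers other than Gzma summed to 1654, 672, 428 and 569 CPM over young pools 1 and 2 and old pools 1 and 2, with all 10 having a UMI, against 12326 to 14302 CPM in NK-like cells. Other T cells of the same pools had 541, 568, 760 and 519 CPM. Monocyte-like cells had 8654 to 9992 CPM, so the sum is not particular to NK cells. Ncr1, a marker of NK cells, had 12 UMIs in young pool 1, 3 in young pool 2 and 0 in the old pools, and 7 of the 152 cells held Klrb1c. The part of such cells in the results was not tested.

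Most Gzmk-positive T cells were Cd8 cells. UMIs of Cd8 without Cd4 were found in 99, of Cd4 without Cd8 in 14, of both in 0 and of neither in 39. By pool the Cd8 share was 65.0% and 77.8% in young pools 1 and 2 and 62.5% and 57.5% in old pools 1 and 2. It was 32.8%, 23.3%, 40.1% and 30.5% of the other T cells. Cells with neither took 20.0%, 16.7%, 25.0% and 37.5% of Gzmk-positive and 43.4% to 56.2% of other T cells. The Cd8 share of old pools was lower by 11.4 percentage points in the mean (exact permutation p = 0.33). It was lower by 32.0 points with at least 2 Gzmk UMIs, by 21.2 after thinning and by 18.8 without any Cd79a or Lyz2 UMI. Among those with Cd4 or Cd8 detected, the Cd8 share was 81.3% and 93.3% for young pools, against 83.3% and 92.0% for old pools, and the means differed by 0.375 points in the other direction.

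**Figure D2:**
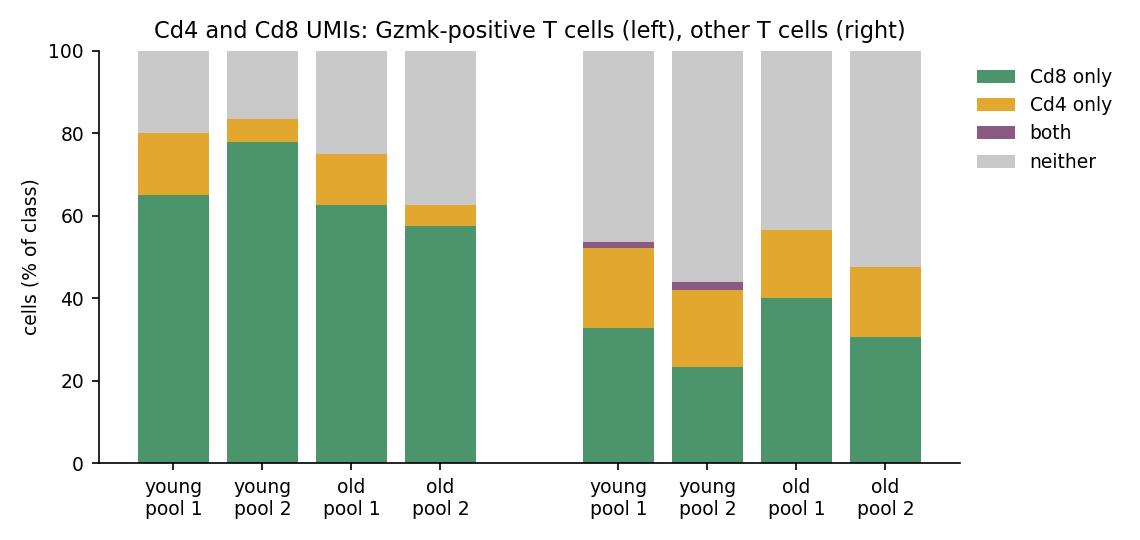
Percentage of cells with UMIs of Cd8 only, Cd4 only, both or neither (stacked bars), in Gzmk-positive (left) and other T cells (right) of each pool. Cd8-only cells take 57.5 to 77.8% of Gzmk-positive T cells and 23.3 to 40.1% of the others.

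Levels in the 3 kinds of Gzmk-positive cells are given over all pools together without a test. The pools contributed unequally, with 35 and 23 of the 99 Cd8 cells and 14 and 15 of the 39 neither cells from old pools 1 and 2, so age and kind of cell cannot be told apart here. Gzmk itself was at 703 CPM in Cd8, 739.7 in Cd4 and 800.0 in cells with neither. Ccl5, a chemokine of memory T cells, was at 48595 CPM in Cd8 cells, 30602 in cells with neither and 7689 in Cd4 cells. Gzma was found in 37 of 99 Cd8, 11 of 39 neither and 1 of 14 Cd4 cells. Klrd1, the Cd94 chain of NKG2 receptors, was found in 53 Cd8 and 11 neither cells and in 0 Cd4 cells, while the costimulatory receptor Cd28 was found in 45, 25 and 11. Eomes was at 171, 152 and 156 CPM in Cd8, neither and Cd4 cells. Hba-a1, from red cells, was at 9805 CPM in Cd8 cells and 33354 CPM in cells with neither, and its part was not tested. The Cd4 cells were too few for a test of their own.

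Against the other T cells of the same pool, Gzmk-positive T cells had higher granule, chemokine and inhibitory receptor genes and lower naive cell and ribosomal protein genes. Of 3483 genes found in at least 10% of the cells of either class, 290 were called (8.33%), 111 higher (3.19%) and 179 lower (5.14%), by edgeR's quasi-likelihood test on summed counts with the pool as a block at an adjusted p of 0.05. A gene was higher in all 4 pools for 17.1% of tested genes and lower in all 4 for 9.42%. Leaving out a pool changed the number of calls, to 191 without old pool 1, 231 without old pool 2, 173 without young pool 1 and 82 without young pool 2. Genes named below as called kept their call when each pool was left out, unless stated, and the range given is of the log2 fold change over these 4 fits.

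Of the 10 tested granule genes, 7 were higher and 0 lower (median log2 fold change 1.49, against 0.02 over all tested genes). Gzma had 5194 and 7418 CPM in the young and 671 and 1983 CPM in the old Gzmk-positive cells, against 136, 275, 226 and 15.8 CPM in the other T cells. Its log2 fold change was 4.30 (SE 0.50, adjusted p = 8.11e-05, range 3.86 to 5.16). Every pool showed the difference, and the level in Gzmk-positive cells was itself lower in old blood.
Gzmb had 725, 354, 428 and 349 CPM against 42.4, 61.2, 87.0 and 31.6 CPM in the other T cells (2.88, SE 0.25, adjusted p = 4.94e-06, range 2.50 to 3.17). Nkg7 had 2902, 4059, 3514 and 4011 CPM against 734, 699, 1240.0 and 777 CPM (1.95, SE 0.16, adjusted p = 4.94e-06). Serpinb6b, a serpin that blocks granule proteases, rose by 2.05 (SE 0.29). Perforin (Prf1) was below the 10% limit, with 7 UMIs in the 152 cells (1, 2, 4 and 0 by pool), and was not tested.

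Ccl5 was at 26886, 42883, 41349 and 41298 CPM in Gzmk-positive cells of young pools 1 and 2 and old pools 1 and 2, and at 3588, 3855, 13138 and 8326 CPM in other T cells. Its log2 fold change was 2.44 (SE 0.22, adjusted p = 4.94e-06, range 2.15 to 2.76). Some Ccl5 RNA lay outside T cells, since 19.3 to 36.8% of B-like cells held a UMI of it, and Ccl5 is also a platelet transcript.
Of the 4 tested chemokines 3 were higher, but Ccl3 and Ccl4 rested on 1 pool. Ccl4 had 6, 279, 13 and 2 UMIs in Gzmk-positive cells of the 4 pools, and Ccl3 had 0, 230, 8 and 3. The fold change of Ccl4 was 3.31 (SE 0.59, adjusted p = 0.00255) and that of Ccl3 4.26 (SE 0.47, adjusted p = 5.66e-05). Without young pool 2 they were 1.23 (adjusted p = 0.326) and 1.90 (adjusted p = 0.17), and neither was called.

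All 6 tested genes of the list of inhibitory receptors and exhaustion had a positive fold change and 5 were called, with a median of 2.28. Lag3, a receptor that restrains T cell activation, had 43.5, 495, 98.4 and 101 CPM in Gzmk-positive and 2.54, 13.2, 13.9 and 10.5 CPM in other T cells. It was higher in every pool, by 4.13 (SE 0.39, adjusted p = 8.09e-06), and by 3.05 without young pool 2. Tox, a nuclear factor of chronically stimulated T cells, had 43.5, 403, 191 and 165 CPM against 35.3, 50.1, 65.0 and 26.3 CPM (2.04, SE 0.30, adjusted p = 0.000606, and 1.51 without young pool 2).
Pdcd1, which encodes PD-1, had 0, 34, 9 and 5 UMIs, with a fold change of 2.52 (SE 0.47, adjusted p = 0.00337) that fell to 1.23 (adjusted p = 0.277) without young pool 2. Cd244 likewise fell from 2.81 to 1.46 (adjusted p = 0.476). Rgs1, a regulator of G protein signalling, was at 1.25 (adjusted p = 0.0127), and its call was also lost without that pool.

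In young pool 2 these transcripts were found in the same cells. Of its 36 Gzmk-positive cells 23 held Ccl4, and of those 23, 19 held Ccl3, 16 Lag3, 16 Pdcd1, 17 Tox, 13 the costimulatory receptor Tnfrsf9 and 20 Gzma. Of the other 13 cells, 1 held Ccl3, 1 Lag3, 0 Pdcd1, 1 Tox, 0 Tnfrsf9 and 4 Gzma. The median depth was 3906 UMIs with Ccl4 and 2612 without, and the part of depth in the contrast was not tested. The 3 cells with the most Ccl4 held 44.8% of its 279 UMIs. In old pool 1, by contrast, 9 of 56 cells held Ccl4, and of those 9, 0 held Ccl3, 2 Lag3, 3 Pdcd1 and 4 Tox.

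**Figure D3:**
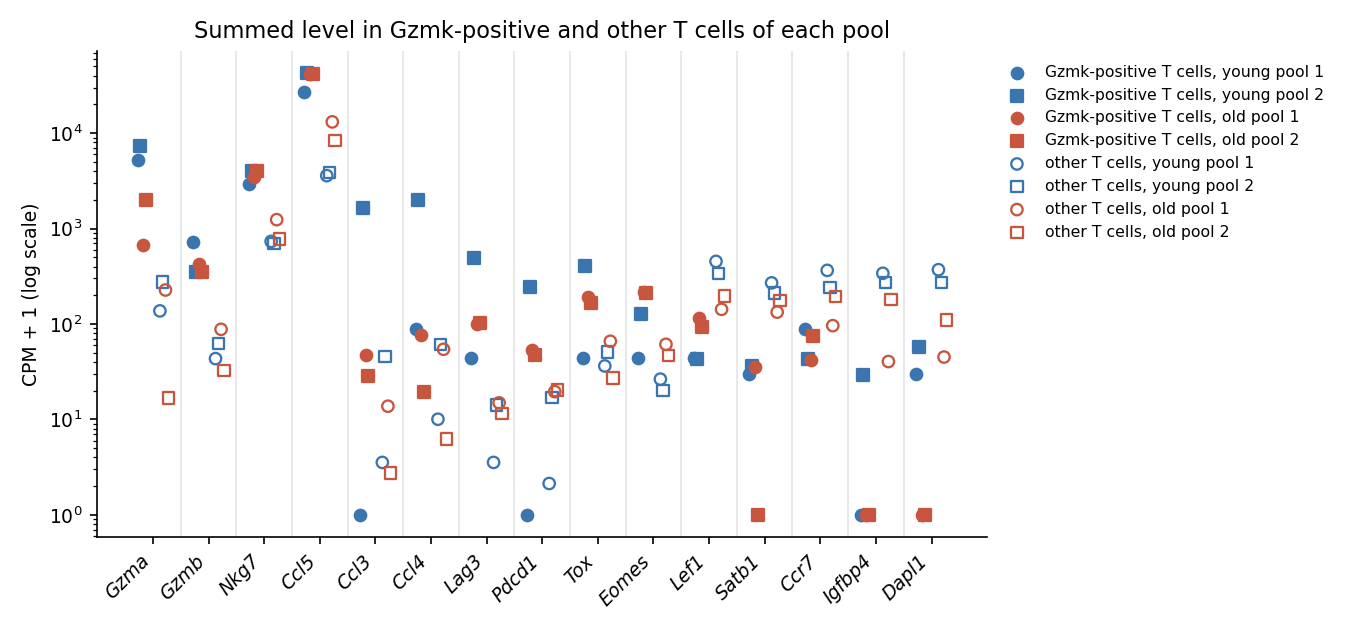
Summed level (CPM + 1, log axis) of 15 genes in Gzmk-positive (filled) and other T cells (open) of each pool, circles for pool 1 and squares for pool 2, with points at 1 for a count of 0. Gzma, Gzmb, Nkg7, Ccl5 and Lag3 are higher in Gzmk-positive cells of all 4 pools, and Ccl3 and Ccl4 reach 1627 and 1973 CPM in young pool 2 alone.

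Among 14 tested lymphocyte transcription factors, 3 were higher and 1 lower. Eomes, a T-box factor of memory Cd8 T cells, had 43.5 and 127 CPM in young and 214 and 211 CPM in old Gzmk-positive cells, against 25.4, 19.1, 60.3 and 45.6 CPM in other T cells. The difference was 1.90 (SE 0.26, adjusted p = 0.000347, range 1.69 to 2.06). Bhlhe40, a factor of cytokine-producing T cells, was higher by 2.11 (SE 0.38). Ikzf3 (1.33) and the Cd4 lineage factor Gata3 (-1.22) were called, but Ikzf3 lost its call without young pool 2 (1.17 to 1.51) and Gata3 without either old pool (-1.51 to -0.97).

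Of 14 tested chemokine and homing receptors, 4 were higher and 3 lower. Itga4, the α4 integrin chain that binds inflamed endothelium, had 218, 255, 353 and 404 CPM against 99.5, 112, 106 and 116 CPM in other T cells. It was higher by 1.34 (SE 0.19, adjusted p = 0.000412, range 1.20 to 1.47). Ccr7, the lymph node homing receptor, fell by 1.97 (SE 0.26, adjusted p = 0.000303). Cx3cr1 was called at 2.63 (adjusted p = 0.00568) from 3, 4, 5 and 7 UMIs and not without old pool 2 (adjusted p = 0.0854). Cxcr3 (0.75) and S1pr1 (-1.07) each lost the call in 3 of the 4 fits with a pool left out.

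Of 15 tested naive and stem-like genes 11 were lower and 0 higher, with a median of -1.06. Satb1, a chromatin organiser of naive T cells, had 29.0, 35.4, 34.7 and 0 CPM against 269, 209.6, 132 and 175 CPM in other T cells (-2.96, SE 0.35, adjusted p = 8.11e-05). Igfbp4 had 4 UMIs in young pool 2 and 0 in the other pools, against 39.4 to 339 CPM (-4.62, SE 0.46, adjusted p = 1.38e-05). Dapl1 was at 0 in both old pools (-3.27, SE 0.38).
Satb1, Igfbp4 and Dapl1 were lower in Gzmk-positive than other T cells of every pool. Lef1, a factor of naive T cells, was lower by 1.81 (SE 0.35, adjusted p = 0.00408), but not called without young pool 2 (adjusted p = 0.0568). Tcf7, its partner, was at -1.03 and lost its call in 3 of the 4 fits with a pool left out, among them that without young pool 2. Ly6c1, outside the lists, had 1 UMI against 441, which is 27.7-fold lower with a 95% counting interval of 4.94 to 1095.

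Of 19 tested memory and effector genes, 6 were higher and 1 lower. The calcium-binding S100a11 (0.99), S100a10 (0.73) and the membrane organiser Anxa2 (1.38, SE 0.19, adjusted p = 0.000311) were higher in each pool and in each fit. Of 91 tested genes of cytoplasmic ribosomal proteins, 78 were lower (5.14% of all tested genes were) and 0 higher, with a median of -0.60. Of 16 tested interferon-stimulated genes 0 were called. Over the whole table DESeq2 called 205 genes, and 657 stood below 0.05 before adjustment. For the T cell surface genes, Cd8a (1.41) and Cd8b1 (0.92) were higher, as the make-up of the classes sets. Of 6 tested cell cycle genes 2 were higher (Hmgb2 and Mcm6), both lost in 3 of the 4 fits with a pool left out.
Markers of other cells did not differ by a called gene: 0 of 7 tested B cell, 0 of 3 monocyte, 0 of 3 platelet and 0 of 5 red cell markers were called. B cell markers summed to 1138 to 1761 CPM in Gzmk-positive and 1222 to 1872 CPM in other T cells. The limits on Cd79a and Lyz2 held in both classes, which narrows what B cell and monocyte markers can show. By pool, red cell markers summed to 41091, 110292, 58044 and 55618 CPM in Gzmk-positive and 14684, 89007, 69831 and 45604 CPM in other T cells. All 5 had a positive fold change, and the part of red cell RNA was not tested. Of 5 tested NK markers 2 were called, Gzma and Klre1 (1.52), and Klre1 lost its call in 3 of the 4 fits.

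The comparison with all other T cells sets cells of different make-up against each other. The 99 Gzmk-positive Cd8 T cells (13, 28, 35 and 23 by pool) were therefore also set against 414 Cd8 T cells without Gzmk that held at least 2 Ccl5 UMIs. Of 3827 genes, 289 were called (7.55%), 85 higher (2.22%) and 204 lower (5.33%). A gene was higher in all 4 pools for 21.5% of tested genes and lower for 7.26%. Without old pool 1 the number of calls was 156, and without any other single pool 221 to 226. Median depth was 2255, 3555, 2466 and 2422 UMIs in the Gzmk-positive and 3657, 3767.5, 3614.5 and 3928.5 UMIs in the other cells, and 169 genes were called with all cells thinned to 1000 UMIs. Ccl5, which chose the comparison cells, was at 39926 to 55834 CPM against 9804 to 22731 CPM. Of all Cd8 T cells, Gzmk-positive ones included, 169 of 401, 140 of 249, 139 of 144 and 64 of 77 passed its limit. UMIs of Ccl5 were also found in 19.3 to 36.8% of B-like cells. Naive Cd8 T cells may therefore be among the comparison cells, and their part in the differences was not tested.

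Granule genes were split. Of 11 tested, 4 were higher and 1 was lower, with a median of 1.05 against -0.01 over all tested genes. Gzma had 4863, 8498, 706 and 375 CPM against 135, 769, 122 and 0 CPM (3.58, SE 0.30, adjusted p = 2.29e-07, range 3.02 to 4.05). Gzmb had 1022, 327, 674 and 294 CPM against 49.5, 79.9, 137 and 41.5 CPM (2.51, SE 0.29, adjusted p = 4.97e-06). Nkg7 was higher by 1.05 (SE 0.12, adjusted p = 4.12e-06).
Gzmm, another granzyme, went the other way in every pool but young pool 1. It had 9, 1, 11 and 0 UMIs in the Gzmk-positive cells, that is 224, 8.38, 116 and 0 CPM, against 123, 84.5, 449 and 498 CPM. The fold change was -2.26 (SE 0.50, adjusted p = 0.00532), young pool 1 had the opposite sign, and without old pool 1 the adjusted p was 0.179.

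Klrg1, a receptor of terminal effector cells, had 199.5, 58.7, 94.8 and 65.3 CPM in Gzmk-positive and 13.6, 13.7, 13.0 and 5.93 CPM in the other Ccl5-positive Cd8 cells (2.68, SE 0.46, adjusted p = 0.000459, range 2.28 to 3.09). Of the NK lectin receptors, 1 of 10 tested was higher and 3 lower, all 3 of the Ly49 (Klra) family, whose members share sequence so that counting may have split their reads. Klra1 had 0 UMIs in Gzmk-positive cells and 96 in the others, at least 6.4-fold lower when 3 counts are taken as the floor over the class. Klra7 had 7, 1, 1 and 0 UMIs (-2.55), and Klra6 2 in all, which is 9.40-fold lower with an interval of 2.53 to 78.7. Klra7, with most of its UMIs in young pool 1, and Klra1 were not lower in every pool. Klra6 and Klra7 lost their calls without old pool 1.

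Inhibitory receptor genes were higher here as well, with 4 of 7 tested called and a median of 2.11. Lag3 had 3, 70, 14 and 4 UMIs against 2, 31, 2 and 1 in the larger class (3.12, SE 0.34, adjusted p = 3.08e-06, range 2.91 to 4.04). Tox had 49.9, 478, 232 and 163 CPM against 20.5, 75.4, 46.7 and 11.9 CPM (2.22, SE 0.29, adjusted p = 2.14e-05, range 2.09 to 2.35). Pdcd1 was at 2.11, with an adjusted p of 0.0514 without old pool 1, and Cd244 at 2.48, with 0.781 without young pool 2.
Among transcription factors, 4 of 16 were higher and 0 lower, and all 4 (Bhlhe40, Ikzf3, Rora and Maf) lost the call without at least 1 pool. Maf, a factor of Il10-producing T cells, had 0, 3, 6 and 6 UMIs against 3 in all, which is 25.0-fold higher with an interval of 7.07 to 135. Eomes, 0.53 (SE 0.27, adjusted p = 0.322), did not pass the test in this comparison.

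Itga4, S100a4, S100a10 and S100a11 were higher in Gzmk-positive cells of every pool. Itga4 had 249, 251, 432 and 408 CPM against 49.5, 95.9, 31.1 and 35.6 CPM (2.25, SE 0.33, adjusted p = 6.48e-05, range 1.83 to 2.91). S100a4, a marker of memory T cells, had 224, 360.4, 411 and 179.5 CPM against 44.3, 57.1, 117 and 41.5 CPM (1.90, SE 0.25, adjusted p = 2.1e-05). S100a11 was higher by 1.40 and S100a10 by 1.09. Outside the lists, the inflammatory caspase gene Casp1 was higher by 2.40 (SE 0.43) and the tetraspanin Tspan3 by 2.63 (SE 0.48). Amica1, also outside the lists, had 0 UMIs in Gzmk-positive cells and 71 in the others, at least 4.73-fold lower with 3 counts as the floor.
Of 17 tested interferon-stimulated genes 2 were higher. Ifi27l2a had 399, 679, 1569 and 1844 CPM against 209.7, 317, 495 and 338 CPM (1.26, SE 0.19, adjusted p = 0.000104). Ifit1, the other, lost its call when any of 3 pools was left out.

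Of 14 tested naive and stem-like genes 9 were lower and 0 higher, with a median of -1.39. Satb1 had 49.9, 33.5, 31.6 and 0 CPM against 186, 174, 205 and 290.4 CPM (-3.14, SE 0.40, adjusted p = 1.53e-05). Dapl1 had 1 UMI against 205, which is 41.0-fold lower with an interval of 7.28 to 1627. Ly6c2, carried by central memory Cd8 cells, had 1870.4, 75.4, 769 and 343 CPM against 1424, 1055, 1927 and 2613 CPM. It was called at -1.91 and not without old pool 1 (adjusted p = 0.0614), and young pool 1 had the opposite sign. Of 93 tested ribosomal protein genes 83 were lower and 0 higher, with a median of -0.85.
Red cell genes moved too: 4 of 5 tested were lower, Hba-a1 by 1.48 (adjusted p = 0.0129). Their sum was 4813, 97948, 20851 and 11832 CPM against 14853, 72745, 25784 and 67032 CPM, young pool 2 had the opposite sign, and all 4 lost the call in 3 of the 4 fits with a pool left out. The part of red cell RNA in the other differences was not tested.

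**Figure D4:**
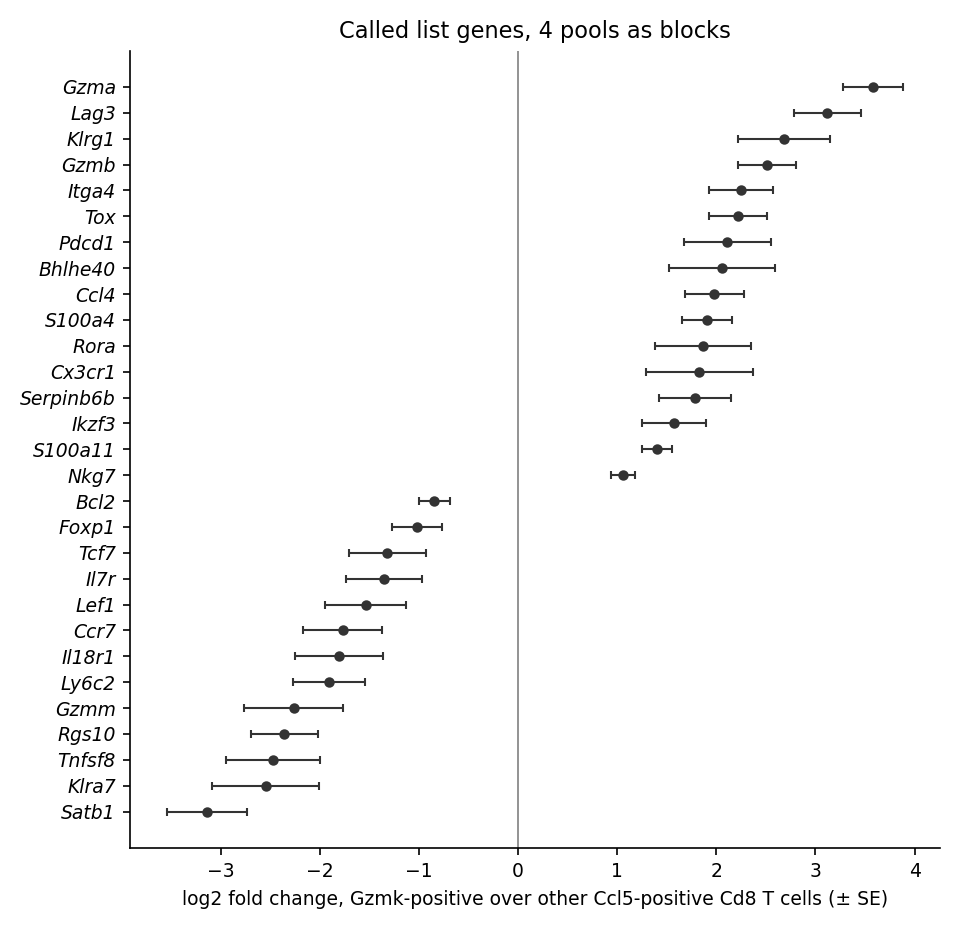
Log2 fold change (horizontal axis, bars ± SE, 4 pools as blocks) of selected called genes of the lists in Gzmk-positive over other Ccl5-positive Cd8 T cells. The genes drawn run from Satb1 at -3.14 to Gzma at 3.58, and called genes with few or no UMIs in a class (Maf, Klra1, Klra6 and Dapl1) are among those not drawn.

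Between the ages, few genes passed the test within Gzmk-positive T cells. Of 2728 genes found in at least 10% of the cells of each age, 6 were called (0.22%), 4 higher (0.147%) and 2 lower (0.0733%) in old blood, while DESeq2 called 4 and 151 stood below 0.05 before adjustment. Both old pools lay above both young pools for 20.1% of tested genes, and below for 13.9%. The design is small: on simulated counts, 21 of 100 genes changed by 1 on the log2 scale and 73 of 100 changed by 2 were called. Of 4 tested genes of the list of inhibitory receptors and exhaustion, 0 were called and 0 had a positive fold change with age. Their median was -1.22, and Lag3, Tox and Pdcd1 were highest in young pool 2.
Gzma fell by 2.31 (SE 0.40, adjusted p = 0.0368), from 5194 and 7418 to 671 and 1983 CPM, with a range of -3.34 to -1.68 over the fits with a pool left out. It was found in 9 of 20 and 24 of 36 young cells and in 8 of 56 and 8 of 40 old cells. Thinned to 1000 UMIs the shares were 45%, 61.1%, 8.93% and 15.0%, and in B-like cells 3.03%, 4.17%, 0.966% and 0.63%. The 3 cells with the most Gzma held 63.1% and 44.5% of its UMIs for young pools, against 94.0% and 81.5% for old pools. DESeq2 did not call Gzma (adjusted p = 1.00).

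Cd7, a membrane protein of T and NK cells, fell by 2.60 (SE 0.34, adjusted p = 0.00537), from 624 and 1047 to 174 and 110.2 CPM. The level of Cd7 in other T cells was 173 and 147 CPM in young and 241 and 196 CPM in old blood. Levels of the young Gzmk-positive cells stood above all 4 pools of other T cells, and those of the old did not. Cd7 was not called among Cd8 cells alone (-1.85, adjusted p = 0.55), nor among cells without any Cd79a or Lyz2 UMI. The summed NK markers given above were highest in young pool 1, and their part in the changes of Gzma and Cd7 was not tested.
Among the genes that rose, Ms4a4b, a membrane protein that modulates T cell activation, went from 2075 and 1146 to 4023 and 4268 CPM (1.36, SE 0.25, adjusted p = 0.0423, not called without young pool 2). Ctla2a, a cysteine protease inhibitor, went from 218 and 283 to 741 and 1083 CPM (1.77, SE 0.30, adjusted p = 0.0368), and was not called after thinning (adjusted p = 0.0993). Crip1 was at 1.26 (adjusted p = 0.0386) and Ifi27l2a at 1.21 (adjusted p = 0.0386), where Crip1 lost the call without young pool 2 and Ifi27l2a without old pool 1. Each of the 6 calls was lost under at least 1 alternative.
These 3 genes were higher with age in the other T cells also, by 2.06 (Ctla2a), 1.31 (Crip1) and 1.01 (Ifi27l2a). In B-like cells Ctla2a had 3.81 and 11.2 CPM in young and 358 and 218 CPM in old blood, and the platelet gene Pf4 had 0.424, 11, 164 and 121 CPM. Platelet markers summed to 0 and 7.07 CPM in young and 625 and 339.6 CPM in old Gzmk-positive cells, and the part of platelet RNA in the rise of Ctla2a was not tested. Ms4a4b had 53.0, 50.2, 16.6 and 19.3 CPM in B-like cells, lower in old blood.

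A test of the difference itself asked whether age acted on Gzmk-positive T cells as on the other T cells of the same pools, and called 11 of 3483 genes (0.316%), 5 with a more positive effect (0.144%) and 6 with a more negative one (0.172%). DESeq2 called 5, all 5 more negative, edgeR with DESeq2's size factors 3 more positive and 6 more negative, and 284 genes stood below 0.05 before adjustment. The ratio of Gzmk-positive to other T cells within a pool was higher in both old than both young pools for 17.6% of tested genes, and lower for 23%. In the other T cells alone, 16 of 19 memory and effector genes were called higher with age (median 1.31). There 10 of 15 naive and stem-like genes were called lower (median -0.74, against -0.01 over all tested genes). A shift in the make-up of the other T cells and a change within them cannot be told apart here. Only Cd7 (-2.96, SE 0.36, adjusted p = 0.0021) kept its call in every fit with a pool left out. Without young pool 2 there were 3 calls, and the call of 9 of the 11 was lost.

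Of 15 tested naive and stem-like genes 2 (Lef1 and Cd28) had a more positive age effect in Gzmk-positive cells and 0 a more negative one. Slamf6 and Klf3, outside the lists, were also called more positive. Slamf6, a receptor of stem-like T cells, had 43.5 and 28.3 CPM in young and 237 and 285 CPM in old Gzmk-positive cells, while other T cells had 174, 179.7, 171 and 207 CPM. The interaction was 2.95 (SE 0.45, adjusted p = 0.00802, range 2.57 to 3.19, lost without young pool 2 with an adjusted p of 0.341). Cd28 went from 218 and 106 to 376 and 422 CPM, against 294, 258, 197 and 293 CPM in other T cells (1.72, SE 0.33, adjusted p = 0.046). Its call was lost among Cd8 cells alone, by DESeq2, with DESeq2's size factors and with edgeR's own filter. Over all pools Cd28 was at 238 CPM in Cd8, 328 in neither and 487 in Cd4 Gzmk-positive cells. The part of this make-up in the difference was not tested.
Klf3, a factor of quiescent lymphocytes, went from 145 and 35.4 to 330.0 and 303 CPM, against 239, 235, 210.0 and 196 CPM (2.40, SE 0.45). Lef1 went from 43.5 and 42.4 to 116 and 91.8 CPM in Gzmk-positive cells, and from 452 and 339 to 142 and 196 CPM in the others (2.59, SE 0.49). In all 4 the young Gzmk-positive cells were below the other T cells, and in old blood Slamf6, Cd28 and Klf3 were above them. Cd28, Klf3 and Lef1 were not called without young pool 2, nor Cd28 and Lef1 without old pool 1.

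Of 19 tested memory and effector genes 3 had a more negative age effect and 0 a more positive one. S100a4 was at 319 and 304 CPM in young and 359 and 211 CPM in old Gzmk-positive cells, while it went from 61.1 and 87.3 to 327 and 324 CPM in the others (-2.11, SE 0.33, adjusted p = 0.00866). S100a4 was not called among Cd8 cells alone. S100a6 went from 1189.8 and 1082 to 2055 and 2239.8 CPM, and in the others from 275 and 359 to 1752 and 2163 CPM (-1.60, SE 0.23, adjusted p = 0.00454). Lgals1 had 3308, 1499, 2096 and 2176 CPM, against 523, 609.8, 1576 and 2023 CPM (-1.63, SE 0.32, adjusted p = 0.046).
In old blood the levels of the 3 genes in other T cells lay close to those of Gzmk-positive cells. S100a4 and S100a6 lost the call without young pool 2 (adjusted p = 0.112 and 0.0854) and Lgals1 without young pool 1 (0.147). Of 6 tested genes of inhibitory receptors and exhaustion, 0 were called and 0 had a more positive age effect (median -2.08, against 0.03 over all tested genes). Ccl4 (-4.10) rested on the 279 UMIs of young pool 2, and Nrgn (-4.12), a gene found in platelets too, on 1, 10, 15 and 5 UMIs, against 85.2 to 162 CPM in B-like cells of old blood. Both lost the call without old pool 1 and without young pool 2.

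**Figure D5:**
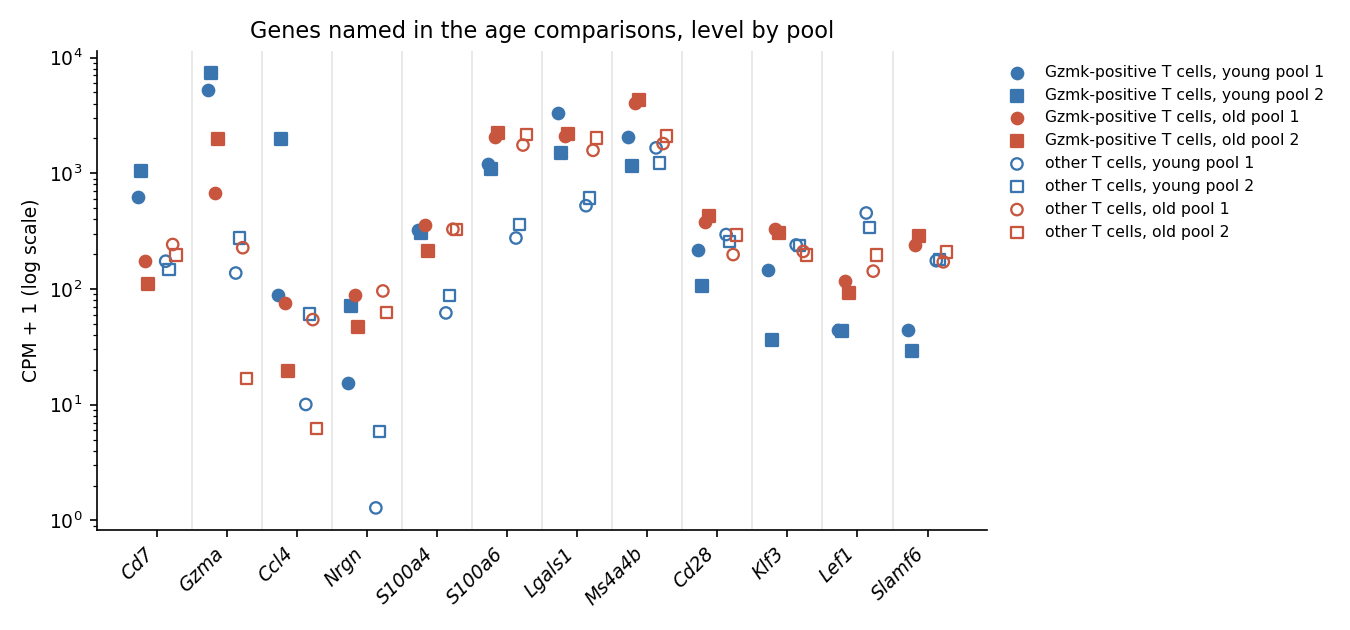
Summed level (CPM + 1, log axis) of 12 genes in Gzmk-positive (filled) and other T cells (open) of the 4 pools, blue for young and red for old, circles for pool 1 and squares for pool 2. Cd7 and Gzma are lower in old than young Gzmk-positive cells, Slamf6 and Ms4a4b higher, and S100a4 is higher in old than young other T cells.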

How the data were processed

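The authors aligned droplet reads of 4 blood pools to mm10 with Cell Ranger, and kept cells with over 500 and under 4000 detected genes and under 10% mitochondrial counts in Seurat 2.3.0. The deposited table holds raw UMI counts per gene and cell, and 0 of its columns belong to other samples. UMIs were summed per pool and class of cells (8 summed libraries for the class comparisons), and CPM were taken over all UMIs of a sum. Genes found in at least 10% of cells of either class (age: of each age) were tested with edgeR 4.0.16 in R 4.3.3 (TMM, quasi-likelihood, Benjamini-Hochberg over all tested genes), with the pool as a block between classes. DESeq2 1.42.0 was an alternative. Shares were compared by two-sided exact permutation, with 95% Clopper-Pearson intervals from scipy 1.17.1 that cover counting error only. A count of 0 was given a floor of 3 counts.

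The members, the gene lists and the rule for named genes were chosen with earlier results of these data known. Named were genes of the lists, and in each test the 10 genes per direction with the largest change among those called and moving one way over the pools, or, with under 3 called, the 3 of lowest p. Tnfrsf9 lies outside this rule and was chosen after its values were seen. Same-numbered young and old pools did not deviate together (r = -0.00682 over 2728 genes), and numbers were not taken as pairs. With few UMIs per gene, counting error alone can bring such an r near 0, so it cannot exclude pairing. Nothing in the labels says more of the pools than that they are separate. The p-values of the age tests measure the spread between pools of an age. With the pool as a block, p-values measure how far the difference between classes varies from pool to pool, for the interaction within an age. With a pool left out, an age has a lone pool that is assumed to vary like the other age. No doublet caller was run: the limits on Cd79a and Lyz2 stand in, and 13 of 152 Gzmk-positive and 126 of 2582 other T cells had over 2 times the median UMIs of their pool's T cells. On simulated counts for the class comparison, 59 and 87 of 100 genes changed by 1 and 2 on the log2 scale were called, with 6 false calls. Results for some genes of the lists are not reported here.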

Additional observations from a re-analysis of the deposited data

Results flagged for a closer look

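For 11 genes the age effect in Gzmk-positive T cells differed from that in the other T cells of the same pools by the interaction term of edgeR. In log2 units, the effect was more positive for Slamf6 (2.95), Lef1 (2.59), Klf3 (2.40), Cd28 (1.72) and Ms4a4b (1.07). It was more negative for Nrgn (-4.12), Ccl4 (-4.10), Cd7 (-2.96), S100a4 (-2.11), Lgals1 (-1.63) and S100a6 (-1.60). Among Cd8 cells alone, Cd28, Ms4a4b, Nrgn and S100a4 were not called. Without young pool 2, 9 of the 11 were no longer called, and Cd7 and Lgals1 were. With 2 pools per age, no single pool could be tested for standing apart. Nor could a shift in the make-up of the other T cells with age be told apart from a change within them.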

How the results depend on the processing

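Old blood had the higher share of Gzmk-positive T cells under every alternative run, among them other denominators, thinning, 2 Gzmk UMIs and each pool left out. The age difference in Cd8 share (-11.4 percentage points) reversed to 0.375 among cells with Cd4 or Cd8 detected, and was -32.0 with 2 Gzmk UMIs, -21.2 after thinning and -18.8 without Cd79a or Lyz2 UMIs. The numbers of calls were less stable, and the cause was not tested. Against other T cells, 68 genes were higher with 10% detection in both classes, 56 without any Cd79a or Lyz2 UMI and 71 by DESeq2, and 276 were lower with no filter, which moved the median of all genes to -0.36. Thinning left 150 calls (60 higher, 90 lower), or 91 (32 and 59) with Gzmk thinned too. With a pool left out there were 82 to 231 calls, 39 to 84 higher and 43 to 166 lower.

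Against other Ccl5-positive Cd8 cells, DESeq2 gave 164 calls (40 higher, 124 lower), thinning 169 (45 and 124), no filter 51 higher, and a pool left out 156 to 226 (33 to 67 higher, 123 to 173 lower).

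For age within Gzmk-positive cells, detection in either age gave 20 calls (13 higher, 7 lower), edgeR's own filter 16 (12 and 4), no filter 38 (21 and 17), Cd8 cells 3 (2 and 1) and thinning 3 (1 higher). Without Cd79a or Lyz2 UMIs edgeR gave 2 calls and 0 higher, with 125 genes at an unadjusted p under 0.05. DESeq2 called 1 gene lower, and 2 Gzmk UMIs gave 4 lower. With a pool left out there were 10 to 41 calls (2 to 22 higher, 7 to 19 lower), and Ccl3, with no call, ranged from -5.46 to 5.23, the latter without young pool 2.

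For the difference of age effects, Cd8 cells gave 28 calls (13 and 15), DESeq2's size factors 3 more positive, DESeq2 5 calls with 0 more positive (71 genes at an unadjusted p under 0.05), edgeR's filter 5 with 1 more positive, and a pool left out 3 to 31 (0 to 11 more positive, 3 to 25 more negative). Without young pool 2, 0 were more positive, with 223 genes at an unadjusted p under 0.05.

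With the replicate number as a block, the change in cell number was 2.80 (adjusted p = 0.0552, edgeR) and age gave 18 calls (11 higher, 7 lower). Whether equal numbers pair the pools is not known, so this fit can neither be set aside nor preferred. Depth limits genes with few UMIs in 152 cells.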
